A study of Mus musculus with 2 samples.

Results

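Imprinted genes are expressed mainly from the copy inherited from either the mother or the father. They lie in clusters in which differentially methylated regions, set in the egg or the sperm, mark the parental origin of each copy. KRAB zinc finger proteins such as ZFP57 bind these regions on the methylated copy and, with TRIM28, SETDB1 and DNMT1, preserve the mark through the divisions of the early embryo and of embryonic stem (ES) cells. Many imprinted genes control growth of the embryo and placenta or act in the brain, and ES cells in culture are known to gain or lose imprints. The 39 imprinted genes described here were given as a list of gene symbols, and all 39 were found among the 21935 symbols measured by RNA-Seq. Of these, 22 are classed as paternally expressed, 16 as maternally expressed, and *Gnas* has transcripts of either origin that depend on the isoform. These classes are background knowledge of mouse imprinting and hold in many but not all tissues, and the reads do not tell the parental copies apart. A level is therefore the sum over both copies, and loss of imprinting cannot be read from it.

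The libraries came from R1 ES cells, a mouse ES cell line, kept on irradiated feeder fibroblasts in medium with LIF, the cytokine that sustains self-renewal, and then cultured for 72 h without LIF in low attachment dishes, where they grow as aggregates. shKdm5b ES cells carried a lentiviral short hairpin RNA against *Kdm5b*, which encodes an H3K4 demethylase, and shLuc ES cells carried a hairpin against luciferase as the control. Polyadenylated RNA was sequenced in 1 library per condition, so no difference has a replicate check, no p-value is given, and library and condition cannot be told apart. The question was how expression at 72 h differs when *Kdm5b* is depleted.

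*Kdm5b* itself had 104 RPKM (51378 reads) in shLuc and 3.01 RPKM (1377 reads) in shKdm5b ES cells. RPKM is the read count of a transcript divided by its length and by the depth of the library. The libraries held 78172700 and 72702699 reads. Distinct alignment positions made up 32.9% of the shLuc reads and 20.1% of the shKdm5b reads, so the shKdm5b library held more repeated reads. Imprinted genes had from 4 to 36375 reads (median 899) in shLuc ES cells and from 5 to 34556 reads (median 966) in shKdm5b ES cells. A total of 3 reads on a transcript of 1 kilobase corresponds to 0.0384 RPKM and 0.0413 RPKM. Markers of ES cells, 10 of 10 of which had an RPKM above 1, summed to 3010 RPKM in shLuc and 3106 RPKM in shKdm5b ES cells, with 1 marker higher and 2 lower. This sum hides opposite differences, since *Pou5f1* had 619 and 182 RPKM and *Esrrb* 80.5 and 41.2 RPKM, while *Dppa5a* had 1096 and 1651 RPKM. All 12 extraembryonic endoderm markers had log2 ratios below 0 and the 8 with an RPKM above 1 were all lower, and the sum over the list was 38.9 RPKM in shLuc and 5.45 RPKM in shKdm5b ES cells. *Afp* of that list had 0 reads in shKdm5b ES cells. The summed level of 12 fibroblast markers, which feeder cells would bring, was 8.05 RPKM in shLuc and 13.4 RPKM in shKdm5b ES cells. Of the 2 compared markers 1 was higher, *Twist1*, at 1.95 and 7.05 RPKM. Among the 12 markers, 6 had log2 ratios above 0 and 6 below 0. *Col1a1* had 174 and 135 reads, *Pdgfra* 260 and 54, *Pdgfrb* 212 and 322 and *Col3a1* 15 and 17. *Postn* and *Fap* had 0 reads in shKdm5b ES cells. The sums were 3.40 and 5.51 RPKM for 8 trophoblast markers, 42.1 and 22.5 RPKM for 7 neural markers, and 0.796 and 1.05 RPKM for 6 mesoderm markers. The part of these cell types in the levels of imprinted genes was not tested. In bulk RNA, fewer cells that express a gene and less RNA per cell cannot be told apart.

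A gene was compared where its RPKM was above 1 in at least 1 library, and it was called higher or lower where it differed by more than 1.5-fold between shKdm5b and shLuc on the log2(RPKM + 0.1) scale. Of the 39 imprinted genes, 27 were compared and 12 had an RPKM of 1 or less in both libraries. *Nnat*, *Gnas*, *Zrsr1*, *H19*, *Sgce*, *Plagl1* and *Ascl2* were higher in shKdm5b ES cells. *Meg3*, *Magel2*, *Igf2r*, *Mirg*, *Snrpn*, *Rian*, *Ppp1r9a*, *Grb10* and *Igf2* were lower. The other 11 genes stayed within 1.5-fold. The 7 higher genes are 25.9% of the 27 compared, where 16.3% of all 11804 compared genes were higher, and the 9 lower genes are 33.3%, where 32% of all compared genes were lower. The share of lower genes was thus near that of all genes before any correction. Over the 37 imprinted genes with a mean RPKM above 0.1 the median log2 ratio was -0.15, beside -0.22 over all 14773 such genes. The order of these medians turned after correction for the GC content of the transcripts, described below. They were then -0.160 for imprinted genes and -0.031 for all genes, and -0.127 and -0.025 after correction for GC content and length. With the first correction 7 of 27 compared imprinted genes were lower, beside 17.9% of all compared genes. With the second, 8 of 28 were lower, beside 16.5%. The pseudocount of 0.1 makes the log2 ratio of weakly expressed genes smaller than that of their reads. The 95% counting intervals given below come from the read counts alone, use no pseudocount and say nothing of variation between cultures. They treat each read as independent although repeated reads were not removed, so they may be too narrow.

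Among the paternally expressed genes, 15 were compared, of which 4 were higher (*Nnat*, *Zrsr1*, *Sgce* and *Plagl1*) and 3 were lower (*Magel2*, *Snrpn* and *Igf2*). Among the maternally expressed genes, 11 were compared, of which 2 were higher (*H19* and *Ascl2*) and 6 were lower (*Meg3*, *Igf2r*, *Mirg*, *Rian*, *Ppp1r9a* and *Grb10*). These are 26.7% higher and 20.0% lower for the paternally expressed genes and 18.2% and 54.5% for the maternally expressed genes, beside 16.3% and 32% of all compared genes, and the difference between the classes was not tested. The median log2 ratio was 0.02 over 20 paternally expressed genes and -0.34 over 16 maternally expressed genes. Of the 6 maternally expressed genes that were lower, *Meg3*, *Rian* and *Mirg* lie next to each other in 1 cluster. Both classes ranged widely among the genes compared, from -1.59 to 2.80 for paternally expressed genes and from -1.64 to 0.99 for maternally expressed genes.

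**Figure D1:**
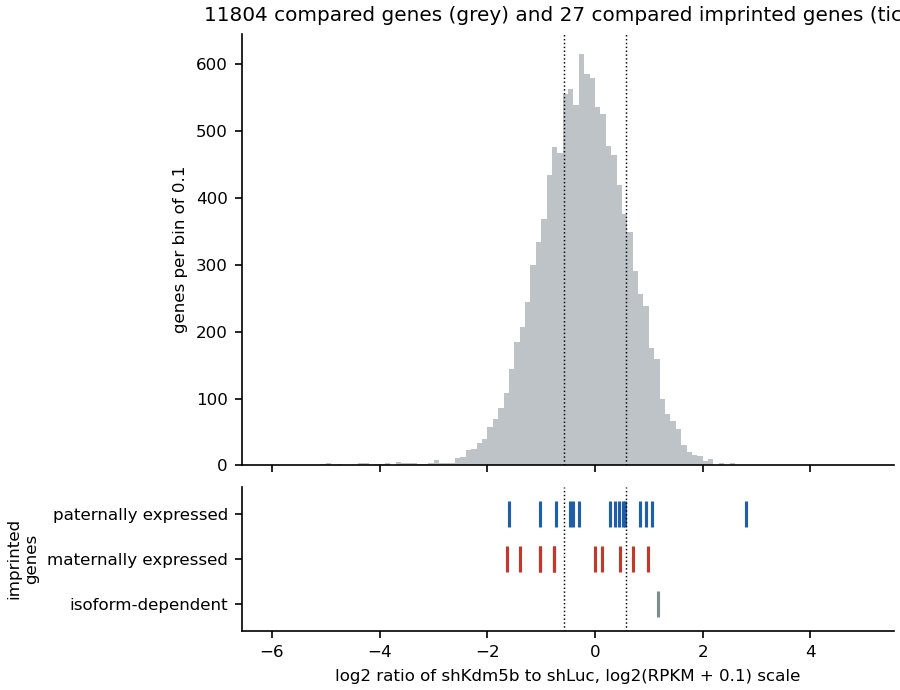
Histogram of the log2 ratio of shKdm5b to shLuc (x axis, log2(RPKM + 0.1) scale, y axis, genes per bin of 0.1) for the 11804 genes compared in grey, with the 27 compared imprinted genes as ticks below in rows by expressed parental copy. Dotted lines mark 1.5-fold, and *Nnat* at 2.80 is the only imprinted gene far outside the bulk of all genes, while the others lie between -1.64 and 1.18.

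**Figure D2:**
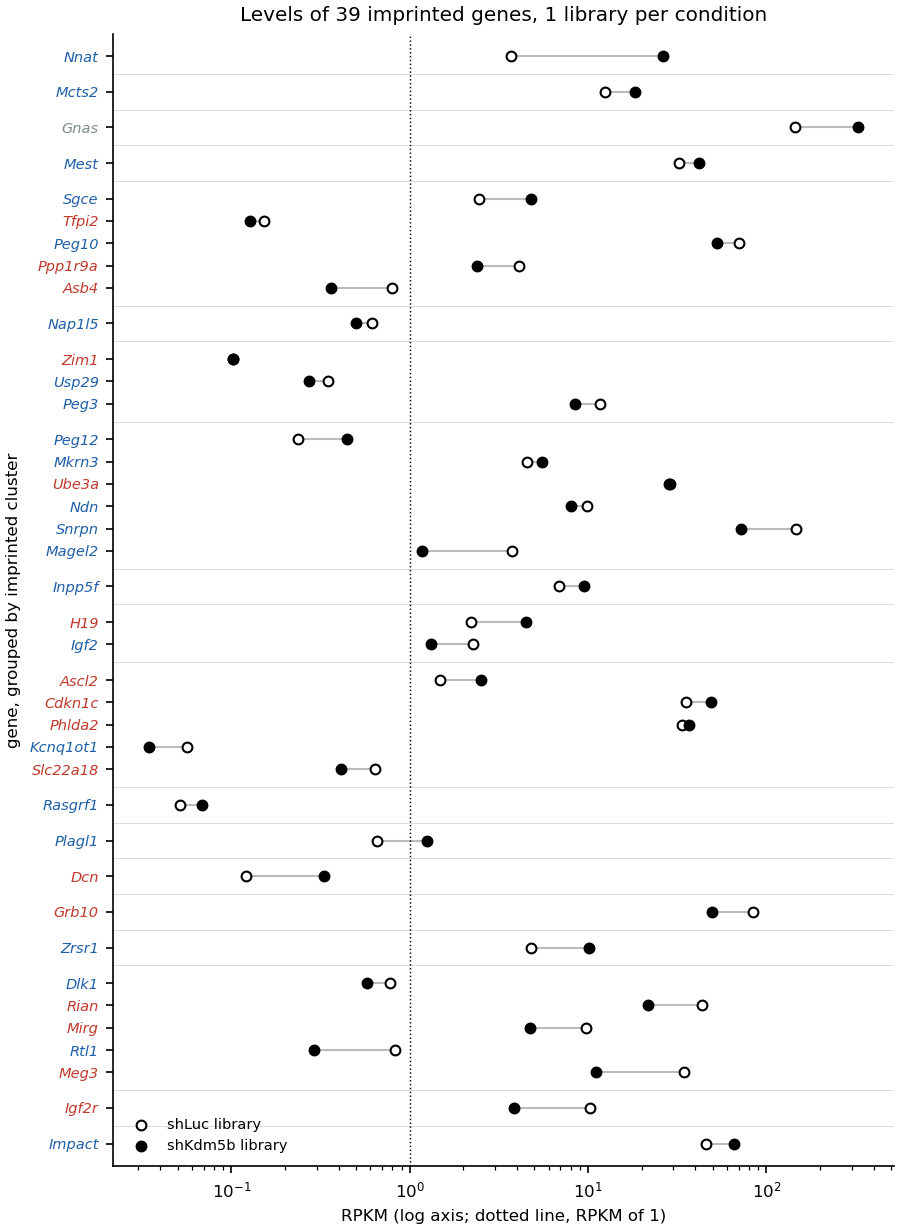
RPKM (x axis, log scale) of each of the 39 imprinted genes in the shLuc library (open circles) and the shKdm5b library (filled circles), in blocks by imprinted cluster, with names of paternally expressed genes in blue, maternally expressed genes in red and *Gnas* in grey. The dotted line marks an RPKM of 1, and levels span from 0.0345 RPKM for *Kcnq1ot1* to 327 RPKM for *Gnas*, both in the shKdm5b library.

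*Nnat*, on chromosome 2, showed the largest difference among the 39 genes. It encodes neuronatin, a small membrane protein of the endoplasmic reticulum, and is expressed from the paternal copy. It had 3.68 RPKM (325 reads) in shLuc ES cells and 26.2 RPKM (2154 reads) in shKdm5b ES cells. This is a fold of 7.13 and a log2 ratio of 2.80, with a counting interval of 2.66 to 3.01. Its log2 ratio stayed between 2.54 and 3.55 under 8 other ways of computing it. As a gene known from neurons it was set beside the neural markers, of which *Tubb3* had 36.4 and 14.0 RPKM and *Nes* had 1.78 and 3.24 RPKM. The part of neural cells in the level of *Nnat* was not tested. *Nnat* lies within the gene *Blcap* on the opposite strand, and their exons do not overlap in the GENCODE M21 annotation. *Blcap* had 10.8 RPKM (1761 reads) in shLuc and 5.94 RPKM (899 reads) in shKdm5b ES cells, a log2 ratio of -0.85 (-0.98 to -0.75). The ratio of *Nnat* to *Blcap* in RPKM was thus 0.34 in shLuc and 4.41 in shKdm5b ES cells. Of 8 compared genes within 500 kb of *Nnat* other than *Blcap*, 0 were higher and 2 were lower, with log2 ratios from -0.95 to 0.35. The promoter of *Nnat* is shown because this gene differed most. The 250 bases before its start site (RefSeq, GRCm38.p6, chr2:157559828-157560077, plus strand) hold 12 CpG dinucleotides, the sites at which mammalian DNA is methylated, which are in capitals.
Nnat: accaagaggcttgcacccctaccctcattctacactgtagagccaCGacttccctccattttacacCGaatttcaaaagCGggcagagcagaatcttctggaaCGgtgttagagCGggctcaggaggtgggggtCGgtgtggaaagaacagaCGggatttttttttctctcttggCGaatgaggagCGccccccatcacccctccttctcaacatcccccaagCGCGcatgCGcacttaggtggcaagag
Among the 27025 genes with a promoter sequence in the same table, the median count in these 250 bases was 6, taking the promoter with most CpG for each gene. It was 11 over the 32 imprinted genes with a promoter there, and it ran from 0 to 40. The hexamer TGCCGC, the letters that ZFP57 recognises in methylated DNA, was searched on both strands from 250 bases before to 50 bases after each start site. It was found at 10 of these 32 imprinted genes (31.25%), *Nnat* and *Meg3* among them, and at 13.1% of the 27025 genes. A gene with several promoters counted where any of them matched. Counted by promoter, it was found at 22.4% of 49 promoters of imprinted genes and at 11.6% of all 32851. The match of *Nnat* lies after its start site, outside the bases shown. The hexamer itself holds a CpG, and the part of the CpG count in these shares was not tested. A match gives the letters only, and DNA methylation was not measured here.

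The *Dlk1*/*Meg3* cluster on chromosome 12 expresses *Dlk1*, which encodes a Notch-related transmembrane protein, and the retrotransposon-derived *Rtl1* from the paternal copy. It expresses the noncoding RNAs *Meg3*, *Rian* and *Mirg*, which host small nucleolar RNAs and microRNAs, from the maternal copy. The 3 noncoding RNAs were lower in shKdm5b ES cells. *Meg3* had 34.4 RPKM (5143 reads) in shLuc and 11.0 RPKM (1530 reads) in shKdm5b ES cells, a log2 ratio of -1.64 (-1.73 to -1.56). *Rian* had 43.7 RPKM (12222 reads) and 21.5 RPKM (5604 reads), a log2 ratio of -1.02 (-1.07 to -0.97). *Mirg* had 9.70 RPKM (983 reads) and 4.71 RPKM (444 reads), a log2 ratio of -1.03 (-1.21 to -0.88). *Rian* and *Mirg* thus had nearly the same ratio, and that of *Meg3* was lower than both, without overlap of the counting intervals. The value of *Meg3* depended on the transcript entry. It came from an entry of 1912 bases, and the entries of 11421 and 11409 bases gave log2 ratios of -1.10 and -1.39. *Rtl1*, which lies opposite to the noncoding RNAs, had 338 reads in shLuc and 110 reads in shKdm5b ES cells, 0.826 and 0.289 RPKM. *Dlk1* had 263 and 181 reads, 0.776 and 0.574 RPKM, a log2 ratio of -0.38 (-0.72 to -0.16). Its sign turned after the correction for GC content (0.30) and after that for GC content and length (0.45). In RPKM, *Meg3* exceeded *Dlk1* by 44.4-fold in shLuc and by 19.2-fold in shKdm5b ES cells. This excess also depends on the entry, since the *Meg3* entry of 11421 bases had only 7.15 RPKM in shLuc and 3.28 RPKM in shKdm5b ES cells. After a correction for GC content *Meg3* (-0.91) and *Rian* (-1.41) remained lower, and *Mirg* (-0.50) came within 1.5-fold. After the correction for GC content and length *Mirg* was lower again (-0.79), as were *Meg3* (-0.96) and *Rian* (-1.27). Outside the list of further imprinted or neighbouring genes described below, 4 entries within 500 kb reached an RPKM of 1. They are small RNAs of the cluster, which a polyadenylated library measures poorly. *Wdr25*, a neighbour on that list, had 2.17 RPKM in shLuc and 1.45 RPKM in shKdm5b ES cells, a log2 ratio of -0.56. The promoters of the 3 noncoding RNAs are shown because these RNAs moved together, with CpG in capitals, all on the plus strand of GRCm38.p6 (RefSeq). They are chr12:109540746-109540995 for *Meg3*, chr12:109603695-109603944 for *Rian* and chr12:109734731-109734980 for *Mirg*.
Meg3: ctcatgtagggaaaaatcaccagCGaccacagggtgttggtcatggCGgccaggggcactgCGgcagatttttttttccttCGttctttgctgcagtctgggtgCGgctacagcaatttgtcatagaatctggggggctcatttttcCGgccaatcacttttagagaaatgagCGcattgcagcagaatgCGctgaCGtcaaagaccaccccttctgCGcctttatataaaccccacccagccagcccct
Rian: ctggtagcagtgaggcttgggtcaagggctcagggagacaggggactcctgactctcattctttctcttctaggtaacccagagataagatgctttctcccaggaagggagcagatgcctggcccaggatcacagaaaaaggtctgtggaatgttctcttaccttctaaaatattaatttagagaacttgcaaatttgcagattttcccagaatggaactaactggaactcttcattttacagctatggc
Mirg: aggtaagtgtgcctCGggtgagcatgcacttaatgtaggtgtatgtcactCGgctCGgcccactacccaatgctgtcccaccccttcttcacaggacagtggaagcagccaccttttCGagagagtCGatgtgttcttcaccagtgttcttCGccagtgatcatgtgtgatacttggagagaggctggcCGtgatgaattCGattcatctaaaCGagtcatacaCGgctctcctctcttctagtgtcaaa
The window of *Meg3* holds 10 CpG, that of *Mirg* 10, and that of *Rian* 0. *Rian* and *Mirg* are often described as parts of the long transcription that begins at *Meg3*, so their own windows need not be promoters.

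*H19* and *Igf2* on chromosome 7 share enhancers, and a region between them that binds CTCF on the maternal copy directs these enhancers to *H19*. *H19* is a noncoding RNA that holds growth back, and *Igf2* encodes insulin-like growth factor II. *H19* had 2.21 RPKM (451 reads) in shLuc and 4.47 RPKM (850 reads) in shKdm5b ES cells, a log2 ratio of 0.99 (0.85 to 1.19). *Igf2* had 2.26 RPKM (651 reads) and 1.32 RPKM (355 reads), a log2 ratio of -0.73 (-0.96 to -0.58). The pair therefore differed in opposite directions, and the ratio of *H19* to *Igf2* in RPKM was 0.98 in shLuc and 3.38 in shKdm5b ES cells. The call of *Igf2* was weak. It came within 1.5-fold with a pseudocount of 1 RPKM, after scaling the libraries to the same median, after TMM scaling, and after either GC correction (-0.38 and -0.25).

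Other imprinted genes of growth control also differed. *Igf2r*, on chromosome 17, encodes the receptor that clears IGF2 from the cell surface, and the antisense RNA *Airn* silences its paternal copy in differentiated cells. *Igf2r* had 10.2 RPKM (7146 reads) in shLuc and 3.86 RPKM (2504 reads) in shKdm5b ES cells, a log2 ratio of -1.39 (-1.47 to -1.34). *Airn* had 0 reads in shLuc and 6 reads in shKdm5b ES cells, too few to compare. Of the 10 compared genes within 500 kb of *Igf2r*, 2 were higher and 2 were lower. *Grb10*, on chromosome 11, encodes an adaptor that restrains insulin and IGF signalling. It had 84.3 RPKM (31391 reads) and 49.6 RPKM (17163 reads), a log2 ratio of -0.77 (-0.79 to -0.74). Its call was lost with TMM scaling (-0.55) and after the correction for GC content and length (-0.58). *Plagl1*, on chromosome 10, encodes a zinc finger protein that regulates other imprinted genes. It had 0.652 RPKM (268 reads) and 1.24 RPKM (475 reads), a log2 ratio of 0.84 (0.71 to 1.15). Its call was lost with a pseudocount of 1 RPKM (0.44) and where both libraries had to exceed an RPKM of 1. *Igf2r* and *Grb10*, both of which oppose IGF signalling, were thus lower and *Plagl1* was higher in shKdm5b ES cells. *Igf2r* is also expressed in extraembryonic endoderm, and the markers of that lineage were lower in the same library. Their part in its level was not tested.

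**Figure D3:**
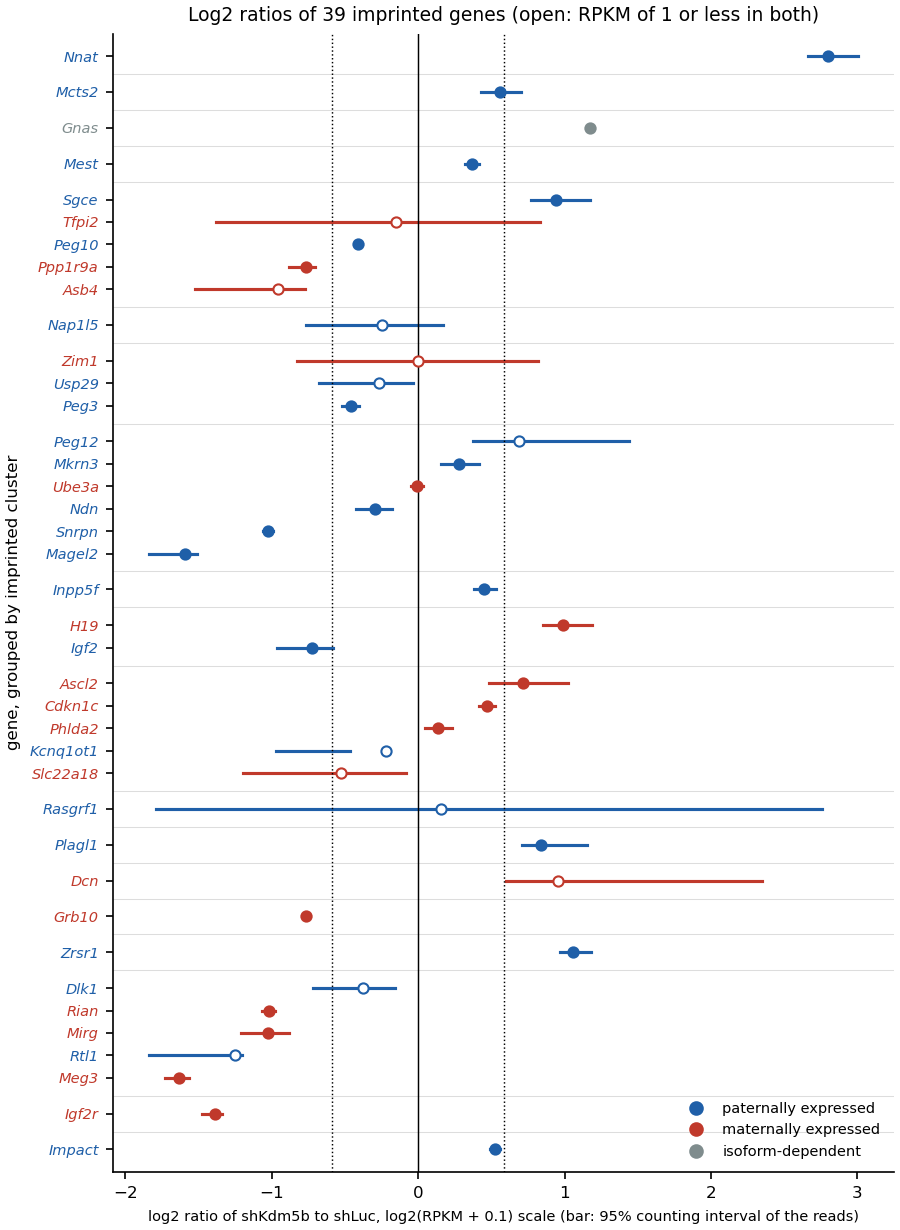
Log2 ratio of shKdm5b to shLuc (x axis, points, log2(RPKM + 0.1) scale) for the 39 imprinted genes in blocks by cluster, with the 95% counting interval of the reads as a bar, blue for paternally expressed, red for maternally expressed and grey for *Gnas*. Open points had an RPKM of 1 or less in both libraries, dotted lines mark 1.5-fold, and the point of *Kcnq1ot1* lies outside its bar because the pseudocount of 0.1 is above its level.

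The *Kcnq1ot1* cluster on chromosome 7 holds maternally expressed genes that limit growth or act in the placenta. *Cdkn1c*, which encodes an inhibitor of cyclin-dependent kinases, had 35.3 RPKM (5225 reads) in shLuc and 48.9 RPKM (6734 reads) in shKdm5b ES cells, a log2 ratio of 0.47 (0.42 to 0.52). *Phlda2*, a regulator of placental growth, had 33.6 RPKM (1936 reads) and 37.0 RPKM (1983 reads), a log2 ratio of 0.14 (0.05 to 0.23). Both stayed within 1.5-fold. *Ascl2*, a transcription factor of the trophoblast, had 1.48 RPKM (187 reads) and 2.50 RPKM (293 reads), a log2 ratio of 0.72. Its interval (0.48 to 1.02) includes differences below 1.5-fold, and its call was lost with a pseudocount of 1 RPKM (0.49). The trophoblast marker sum was also higher in shKdm5b ES cells, as given above, with *Eomes* at 2.45 and 4.05 RPKM and *Cdx2* at 16 and 10 reads, and its part in *Ascl2* was not tested. These transcripts are rich in GC, and after the GC correction the log2 ratios were 1.30 for *Cdkn1c*, 0.81 for *Phlda2* and 1.52 for *Ascl2*, all past 1.5-fold. After the correction for GC content and length they were 1.24, 0.10 and 1.39, so *Phlda2* was then within 1.5-fold. *Kcnq1ot1*, the long antisense RNA that silences the cluster on the paternal copy, had 369 reads in shLuc and 209 reads in shKdm5b ES cells, 0.0566 and 0.0345 RPKM over its long transcript. *Slc22a18*, which encodes a transporter, had 75 and 45 reads.

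The *Snrpn* cluster on chromosome 7 corresponds to the region of Prader-Willi and Angelman syndromes. *Snrpn*, which encodes the spliceosomal protein SmN, had 147 RPKM (22695 reads) in shLuc and 72.4 RPKM (10363 reads) in shKdm5b ES cells, a log2 ratio of -1.03 (-1.06 to -0.99). The upstream reading frame *Snurf* is carried by the same RNA, and its entry held the same 22695 and 10363 reads, so it adds no separate measurement. *Magel2*, a MAGE family gene, had 3.73 RPKM (1359 reads) and 1.17 RPKM (397 reads), a log2 ratio of -1.59 (-1.84 to -1.51). The neighbouring paternally expressed genes *Ndn* and *Mkrn3* stayed within 1.5-fold. *Ndn*, which encodes the MAGE protein necdin, had 9.91 RPKM (1279 reads) and 8.05 RPKM (966 reads), and *Mkrn3*, a makorin ring finger gene, had 4.52 RPKM (899 reads) and 5.51 RPKM (1020 reads). *Ube3a*, the ubiquitin ligase gene that is imprinted in neurons, had 28.7 RPKM (11035 reads) and 28.6 RPKM (10206 reads), with a log2 ratio of -0.01 (-0.05 to 0.03). *Peg12* had 49 and 85 reads and an RPKM below 1. The cluster thus spanned log2 ratios from -1.59 to 0.28 among its 5 compared genes. *Ndn* passed 1.5-fold only after the correction for GC content and length, with a log2 ratio of -0.63.

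In the *Peg10*/*Sgce* cluster on chromosome 6, *Peg10* and *Sgce* are transcribed away from each other from 1 shared promoter region on the paternal copy. *Peg10*, a retrotransposon-derived gene needed in the placenta, had 69.8 RPKM (36375 reads) in shLuc and 52.6 RPKM (25490 reads) in shKdm5b ES cells, a log2 ratio of -0.41 (-0.43 to -0.39). *Sgce*, which encodes epsilon-sarcoglycan, had 2.44 RPKM (323 reads) and 4.78 RPKM (589 reads), a log2 ratio of 0.94 (0.77 to 1.17). The ratio of *Peg10* to *Sgce* in RPKM was 28.7 in shLuc and 11.0 in shKdm5b ES cells. *Ppp1r9a*, which encodes the actin-binding protein neurabin and is maternally expressed in part of the tissues, had 4.10 RPKM (3063 reads) and 2.37 RPKM (1644 reads), a log2 ratio of -0.77 (-0.88 to -0.71), which came within 1.5-fold with TMM scaling (-0.56). *Asb4* had 204 and 86 reads and *Tfpi2* had 18 and 14 reads, with RPKM below 1 in both libraries.

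*Gnas*, on chromosome 2, encodes the alpha subunit of the stimulatory G protein and several other proteins through alternative first exons. It had the highest RPKM of the imprinted genes in the shKdm5b library. Its leading entry had 145 RPKM (16437 reads) in shLuc and 327 RPKM (34556 reads) in shKdm5b ES cells, a log2 ratio of 1.18 (1.15 to 1.20). Of its 9 entries, 7 held nearly the same number of reads in each library, so they do not separate the parental isoforms, and their log2 ratios were from 1.12 to 1.18. The other two were an entry of 2731 bases with 63 and 137 reads and an entry of 1645 bases with 993 reads in shLuc and 773 reads in shKdm5b ES cells, a log2 ratio of -0.25. The antisense RNA *Nespas* at the same locus had 128 and 41 reads.

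Several imprinted genes are retrogenes that lie inside a host gene. *Zrsr1*, a splicing factor gene on chromosome 11 inside *Commd1*, had 4.80 RPKM (1081 reads) in shLuc and 10.1 RPKM (2116 reads) in shKdm5b ES cells, a log2 ratio of 1.06 (0.97 to 1.18). *Commd1* had a log2 ratio of 0.66 (0.58 to 0.74), and exons of the pair overlap on opposite strands in the annotation. *Zrsr2*, the related gene from which reads could be shared, had 8.18 and 14.2 RPKM, a log2 ratio of 0.79 (0.72 to 0.87). The log2 ratio of *Zrsr1* was larger than both, without overlap of the counting intervals, which may be too narrow because repeated reads were kept. Reads shared with either were not tested. *Mcts2*, on chromosome 2 inside *H13*, had 12.4 RPKM (769 reads) and 18.3 RPKM (1057 reads), a log2 ratio of 0.56 (0.43 to 0.70), while *H13* had -0.38 (-0.58 to -0.20). This contrast was lost after the GC correction (0.53 and 0.10) and after the correction for GC content and length (-0.13 and -0.31), where *Mcts2* changed sign. Its parent gene *Mcts1* had a log2 ratio of 0.81 (0.70 to 0.93), and the share of reads that either takes from the other was not tested. *Nap1l5*, inside *Herc3* on chromosome 6, had 91 and 69 reads. *Inpp5f*, on chromosome 7, a phosphoinositide phosphatase gene with an imprinted short isoform, had 6.88 RPKM (2549 reads) and 9.44 RPKM (3252 reads), a log2 ratio of 0.45 (0.38 to 0.53).

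**Figure D4:**
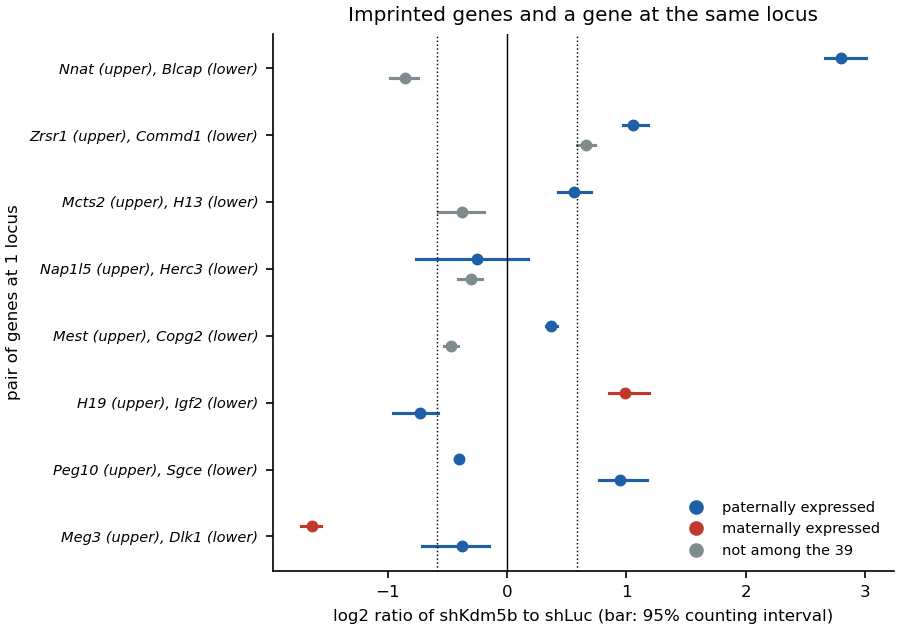
Log2 ratio of shKdm5b to shLuc (x axis) for 8 pairs of genes that share a locus, with the 95% counting interval as a bar and dotted lines at 1.5-fold. Imprinted genes of the list are in blue (paternally expressed) or red (maternally expressed) and other genes in grey. The pairs *Nnat* and *Blcap*, *Mcts2* and *H13*, *Mest* and *Copg2*, *H19* and *Igf2*, and *Peg10* and *Sgce* lie on opposite sides of 0, which for *Mcts2* and *H13* did not hold after either GC correction.

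*Mest*, *Peg3* and *Impact* were expressed at moderate levels and stayed within 1.5-fold. *Mest*, on chromosome 6, encodes a hydrolase-like protein and had 32.2 RPKM (6400 reads) in shLuc and 41.6 RPKM (7692 reads) in shKdm5b ES cells. Its neighbour *Copg2*, whose exons overlap those of *Mest* on the other strand, had 22.9 and 16.5 RPKM. *Peg3*, a zinc finger gene on chromosome 7, had 11.7 RPKM (6054 reads) and 8.50 RPKM (4093 reads), a log2 ratio of -0.46 (-0.52 to -0.40). *Impact*, on chromosome 18, encodes a regulator of translation and had 45.9 RPKM (12320 reads) and 66.2 RPKM (16520 reads), a log2 ratio of 0.53 (0.49 to 0.56). In the *Peg3* cluster, *Usp29* had 198 and 144 reads and *Zim1* had 28 and 26 reads. *Dcn*, which encodes the matrix protein decorin, had 17 and 43 reads. *Rasgrf1*, an exchange factor gene for RAS, had 4 and 5 reads, so that a difference was not detectable at this depth (-1.79 to 2.76).

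Flanking genes were described in the same way. Within 500 kb of an imprinted gene, 267 symbols outside the gene lists described next were measured and 90 were compared. Of these 90, 12 (13.3%) were higher and 26 (28.9%) were lower in shKdm5b ES cells. Over the 136 flanking symbols with a mean RPKM above 0.1 the median log2 ratio was -0.27, beside -0.22 over all such genes. A list of 44 further imprinted or neighbouring genes had 41 in the tables and 24 compared. Of these 24, 8 (33.3%) were higher and 7 (29.2%) were lower, beside 16.3% and 32% of all compared genes. The lower genes include *Snurf*, which held the same reads as *Snrpn*. The higher genes include *Commd1*, whose exons overlap those of *Zrsr1*. After the GC correction *Slc38a4* (0.43), *Commd1* (0.50) and *Qpct* (0.33) of the higher genes came within 1.5-fold. So did *Nap1l4* (-0.40), *Blcap* (-0.49) and *Cobl* (-0.51) of the lower genes, while *Copg2* (-0.70) and *Pon3* (-0.59) became lower. The correction for GC content and length gave the same calls for these genes. *Sfmbt2*, a Polycomb-related gene, had 1.23 RPKM (750 reads) in shLuc and 4.41 RPKM (2506 reads) in shKdm5b ES cells, a log2 ratio of 1.76 (1.73 to 1.96). *Slc38a4*, an amino acid transporter gene, had 13545 reads in shLuc and 20739 reads in shKdm5b ES cells, and *Calcr*, the calcitonin receptor gene, had 205 and 436 reads. *Tssc4*, in the *Kcnq1ot1* cluster, had 13.2 RPKM (1408 reads) and 3.03 RPKM (300 reads), a log2 ratio of -2.09 (-2.31 to -1.95). *Trappc9*, which holds *Peg13* in an intron, had 6.35 RPKM (1639 reads) and 2.31 RPKM (554 reads), a log2 ratio of -1.42 (-1.60 to -1.32). *Peg13* itself had 4 reads in shLuc and 54 reads in shKdm5b ES cells, with an RPKM below 1 in both.

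Of 20 factors linked to setting, keeping or removing imprints, 19 were compared. Of these, 2 (10.5%) were higher and 6 (31.6%) were lower, beside the same 16.3% and 32%. The list includes *Tet1*, *Tet2* and *Tet3*, whose products take part in removing DNA methylation. *Trim28*, the corepressor that KRAB zinc finger proteins recruit, had 476 RPKM (120644 reads) in shLuc and 145 RPKM (34072 reads) in shKdm5b ES cells, a log2 ratio of -1.72 (-1.74 to -1.70). *Dnmt1*, the maintenance DNA methyltransferase gene, had 45.9 and 25.1 RPKM, a log2 ratio of -0.87 (-0.91 to -0.84). *Ehmt2* and *Tet1* had log2 ratios of -1.33 and -1.03, and *Dnmt3a* and *Tet3* had -0.71 and -0.86. *Dppa3*, which protects imprints from demethylation in the zygote, had 2.38 RPKM (152 reads) and 6.12 RPKM (364 reads), a log2 ratio of 1.33 (1.09 to 1.65), and the Polycomb gene *Eed* had 0.70. *Zfp57* had 80.4 and 59.6 RPKM, *Setdb1* had 25.8 and 18.4 RPKM and *Ctcf* had 62.0 and 50.3 RPKM, all within 1.5-fold. After the GC correction the log2 ratio was -0.88 for *Trim28*, and those of *Dnmt1* (-0.43), *Dnmt3a* (-0.36), *Ehmt2* (-0.48) and *Tet3* (-0.44) came within 1.5-fold, while that of *Dnmt3l* (0.94) passed it. After the correction for GC content and length *Dppa3* was also within 1.5-fold, at 0.54.

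The log2 ratio moved with the GC content of the transcript over all genes, with a Spearman correlation of -0.53 across 11723 compared genes from the same pair of libraries. Imprinted genes lay on both sides of this trend. *Nnat* (57.9% GC), *Gnas* (56.1%) and *H19* (55.8%) were higher, against the direction of this trend, and after the correction their log2 ratios were 3.55, 1.82 and 1.60. *Rian* (41.5%) and *Snrpn* (44.8%) were lower, also against the trend, and their corrected log2 ratios were -1.41 and -1.22. With the GC content of the transcript matched to *Snurf* (51.9%), which held the same reads, the corrected log2 ratio was -0.68. *Meg3* (57.4%) and *Magel2* (57.6%) lay in the direction of the trend, and their corrected log2 ratios were -0.91 and -0.90, smaller in size than without the correction. All 16 imprinted genes called higher or lower kept the direction of their log2 ratio in the 8 alternative settings that recompute it. Most of these settings could not turn it. A pseudocount cannot change the sign, and the scaling shifts of -0.17 and -0.22 are smaller in size than the threshold of 0.585. The choice of entry matters only for genes with several entries. The direction was thus open to change mainly under the 2 GC corrections. The other 5 settings change the call rule alone.

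**Figure D5:**
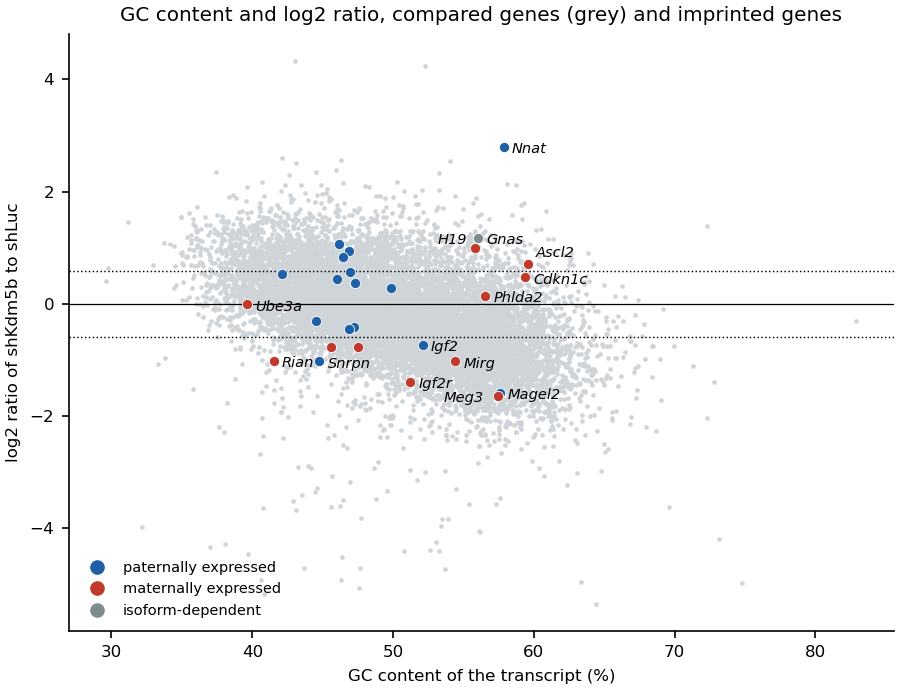
GC content of the transcript in percent (x axis) against the log2 ratio of shKdm5b to shLuc (y axis) for the compared genes in grey, with compared imprinted genes in blue (paternally expressed), red (maternally expressed) and dark grey (*Gnas*). Dotted lines mark 1.5-fold, and the cloud of all genes descends to the right, with *Nnat* above it, *Gnas* and *H19* at its upper edge and *Rian* and *Snrpn* at its lower left edge.

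The number of imprinted genes past the threshold depended on the setting, as did that of all genes. With 1.5-fold beyond the counting interval, 6 were higher and 8 lower, beside 13.5% and 26.9% of all compared genes. With a fold of 2 these were 3 and 6, beside 6.27% and 16.5%. With the libraries scaled to the same median they were 11 and 8, beside 22.1% and 25.3%, and with TMM scaling 12 and 6, beside 24.1% and 23.2%. With an RPKM above 1 in both libraries they were 6 and 9, beside 16.3% and 29%. After the GC correction they were 9 and 7, beside 19.3% and 17.9%, and after the correction for GC content and length 8 and 8, beside 15.8% and 16.5%. With an exact test of edgeR on the reads at an assumed dispersion of 0.04 only *Nnat* remained, so 1 was higher and 0 were lower, beside 0.94% and 1.47%.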

How the data were processed

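Polyadenylated RNA of shLuc and shKdm5b R1 ES cells at 72 h without LIF was measured, with 1 library per condition. For each of 27405 RefSeq transcript entries the authors deposited a whole-number read count and an RPKM value, that is, the count normalized to transcript length and library total, and for each library the aligned 50-base reads. The submitters' processing notes name CASAVA 1.0, Bowtie 0.12.7 and the build mm8, without their roles. A library total implied by count, length and RPKM was used as depth.

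The imprinted genes were given as a list of symbols, and the members, lists of other genes and alternatives were chosen with earlier results of these data known. Where a symbol had several entries, that with the largest mean RPKM represented it, which matters for 14 of the 39 genes. All compared members are named, and other genes only from the lists. Calls used a fold above 1.5 on the log2(RPKM + 0.1) scale, for genes that exceeded an RPKM of 1 in either library, after the thresholds of the study, without its FDR, which needs replicates. Exact Clopper-Pearson 95% intervals came from the reads. Reads are not independent molecules, since repeated reads were not removed. Lowess corrections (fraction 0.3) used the GC content of GENCODE M21 transcripts, matched by accession or, failing that, symbol, for all 39 genes and for 99.3% of the genes compared. As an alternative, the counts were tested with the exact test of edgeR 4.0.16 (R 4.3.3) with TMM factors, a dispersion set to 0.04 and an FDR below 0.001. The steps were tested on simulated data. Scripts ran under Python 3.11.15 with NumPy 2.4.6, SciPy 1.17.1, pandas 2.3.3, statsmodels 0.14.6 and matplotlib 3.10.9.

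Promoters came from RefSeq on GRCm38.p6, another build than that of the files, and matched 32 of the 39 genes. *H19*, *Rtl1*, *Cdkn1c*, *Peg10*, *Sgce*, *Impact* and *Dcn* had no entry. Neighbouring and overlapping genes were taken from annotations of GRCm38. Whether reads were counted by strand is not given in the sources used here, so overlapping genes on opposite strands may share reads. The tables also hold a column of small whole numbers whose meaning is unknown, and it was left out.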

Additional observations from a re-analysis of the deposited data

How the results depend on the processing

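No paired analysis was possible because only 1 library represents a condition, and for that reason no library could be left out. Distinct read positions per gene were not counted, because no gene annotation of the build mm8 was at hand. The count of higher imprinted genes, 7, was 11 with median scaling, 12 with TMM scaling, 3 with a fold above 2 and 1 with the edgeR test at a dispersion of 0.04. The count of lower genes, 9, was 0 with that test and stayed within 1.5 times 9 under the other 12 settings. These changes follow from how each setting is built, since scaling takes a shift of -0.17 or -0.22 out of all log2 ratios and a stricter threshold passes fewer genes. The median log2 ratio of the imprinted genes, -0.15, was 0.0654 with an RPKM above 1 in both libraries, which leaves fewer genes. The median of the paternally expressed genes, 0.02, was -0.0016 with a pseudocount of 0.01 RPKM, -0.0304 with no RPKM threshold and 0.33 with an RPKM above 1 in both libraries, so its sign is not settled. The median of the maternally expressed genes stayed below 0 under every setting that gives one. So did the median of all genes, which lay between -0.24 with a pseudocount of 0.01 RPKM and -0.02 with TMM scaling. With a pseudocount of 1 RPKM the median was -0.12 for maternally expressed genes and -0.14 for all genes. The single log2 ratios moved past their counting intervals in 114 of 312 recomputed values, 26 of them with TMM scaling and 0 with a pseudocount of 0.01 RPKM. The sign turned under at least 1 setting for *Dlk1*, *Mcts2*, *Rasgrf1*, *Slc22a18*, *Ube3a* and *Zim1*, none of which was called higher or lower.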
